A study of Homo sapiens with 4 samples.

Results

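The genes examined were 10 genes of fatty acid synthesis and desaturation, namely SREBF1, ACLY, ACSS2, ACACA, FASN, ELOVL1, ELOVL6, SCD, FADS1 and FADS2. They were chosen by name for their role in lipogenesis, and all 10 were found among the 28729 genes of the expression table. Mean expression was high enough for testing in 9 of the 10, out of 12645 genes tested in all, and ELOVL6 was the exception. The cells were TU-177, an established human line of laryngeal squamous cell carcinoma (LSCC), grown with fetal bovine serum. The series held 4 RNA-seq libraries, 2 from cells given a negative control shRNA (sh_NC) and 2 from cells given an shRNA against SKA3 (sh_SKA3), a kinetochore gene needed for chromosome separation. All 4 came from cells that had received a lentivirus and survived puromycin, which was added 48 h after transduction, so the controls carried the vector and the selection too. The study used the knockdown to ask what SKA3 does in LSCC cells, whose metabolism was of interest. The labels do not say how many hairpins were used or whether replicates were separate cultures, so every p-value below measures only the spread between these libraries, which may be technical. In such bulk RNA, fewer cells expressing a gene and less of its RNA per cell cannot be told apart.

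Cells make fatty acids in the cytosol from acetyl-CoA. ACLY cuts citrate exported from mitochondria to give acetyl-CoA, and ACSS2 makes it from acetate. ACACA (acetyl-CoA carboxylase alpha) turns acetyl-CoA into malonyl-CoA, the committed step, and FASN (fatty acid synthase) joins these units into palmitate. ELOVL6 lengthens palmitate to stearate, ELOVL1 builds very long saturated chains, SCD introduces the first unsaturated bond into palmitate and stearate, and FADS1 and FADS2 desaturate polyunsaturated chains. SREBF1 encodes the SREBP-1 transcription factors that drive most of these genes. Raised lipogenesis is a common feature of carcinoma cells.

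The lipogenic genes did not move as a block. ACLY fell by 34.6% in sh_SKA3, ACACA rose by 28.8%, and these were the only members past the threshold of an adjusted p of 0.05. Over all genes tested, 6.11% were lower and 6.16% higher past it. FASN, ELOVL1, SREBF1 and FADS1 were higher in both sh_SKA3 libraries without passing, and SCD, ACSS2 and FADS2 were lower in both without passing. Such groups without overlap were found in 61.6% of all genes tested. ELOVL6 was barely expressed and could be compared only on its few reads.

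SKA3 itself was at 9.40 and 9.64 FPKM in sh_NC and at 3.77 and 4.12 FPKM in sh_SKA3. FPKM counts fragments per length of gene and per size of library, so it can be compared between genes. The SKA3 groups did not overlap, and the log2 fold change was -1.09 (SE 0.07, adjusted p = 0.00806, limma), where limma is a linear model fitted to all tested genes on log2(FPKM + 1). The library sizes recovered from the FPKM values were between 9015056 and 11966130 reads. In every library the recovered reads summed over genes were more than this size, as with 12358148 against 11966130 in the first sh_NC library. Why was not tested, and the counting errors below take the recovered reads as they stand. Between replicates the reads varied beyond counting error, the chi-square divided by its degrees of freedom being 3.72 in sh_NC and 3.67 in sh_SKA3. The squamous label was met only in part. Of 12 squamous markers 11 were in the table, and 6 of these, among them KRT5, KRT14, TP63 and CDH1, were below 1 FPKM in every library, whereas KRT17, SFN and PERP were expressed. The summed squamous markers were at 268 and 278 FPKM in sh_NC and 190 and 210 FPKM in sh_SKA3. KRT17 and PERP were lower past the threshold, and their part in the lipogenic results was not tested. Summed endothelial, hepatocyte and immune markers stayed between 0 and 1.38 FPKM. Only 3 of 5 endothelial, 2 of 5 hepatocyte and 5 of 6 immune markers were in the table. Summed fibroblast markers were at 15.4 and 15.8 against 8.89 and 9.59 FPKM, mostly DCN and COL1A1 in sh_NC, and DCN was lower past the threshold. PDGFRB went the other way, at 2.88 and 2.46 FPKM in sh_NC and 3.19 and 4.13 FPKM in sh_SKA3, without passing. Of 7 adipocyte markers 5 were in the table and LPL made up most of their sum, which was 40.6 and 41.0 FPKM in sh_NC and 37.7 and 33.0 FPKM in sh_SKA3, while LEP was at 0 and PLIN1 and CIDEC were near 0. PPARG was at 1.22 and 1.26 FPKM in sh_NC and at 2.16 and 1.55 FPKM in sh_SKA3, without passing.

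**Figure D1:**
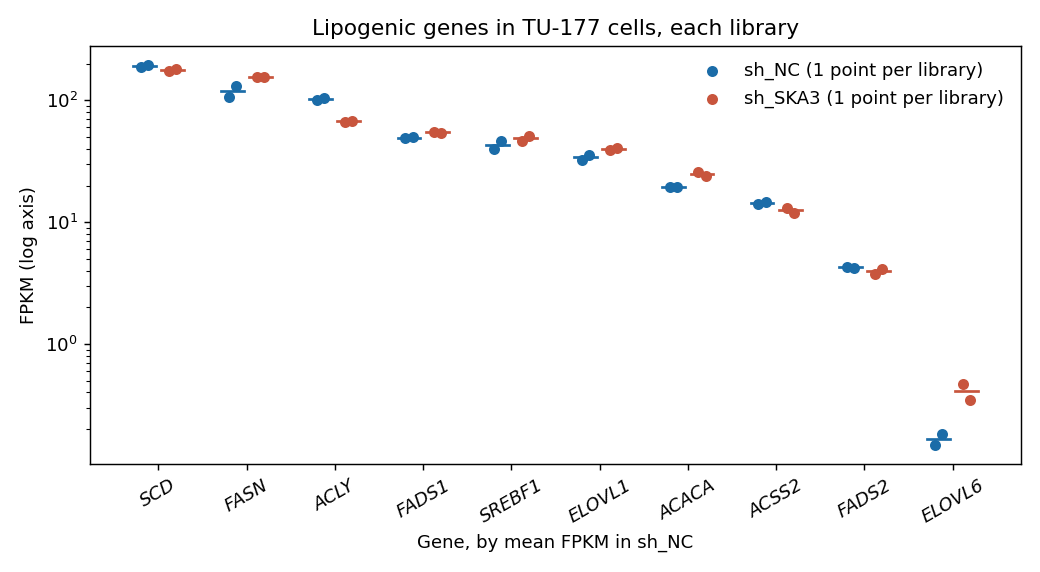
FPKM (log axis) of the 10 lipogenic genes in each library, ordered by the mean in sh_NC, with 1 point per library and a bar at the mean of each group. The order from SCD (192 FPKM in sh_NC) to ELOVL6 (0.166 FPKM) is the same in both groups. The points of the groups do not overlap for any of the 10, as is so for 61.6% of all genes tested.

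SCD led with a mean of 192 ± 5.10 FPKM (SD, n = 2) in sh_NC, above 98.7% of the genes tested, as read from the mean over all 4 libraries. FASN followed at 119 ± 17.0 and ACLY at 103 ± 2.78 FPKM (SD, n = 2 each). Then came FADS1 at 49.6, SREBF1 at 43.2, ELOVL1 at 34.2, ACACA at 19.3, ACSS2 at 14.4, FADS2 at 4.25 and ELOVL6 at 0.166 FPKM. The order was the same in sh_SKA3, and no neighbours in it had overlapping ranges in either group. In sh_NC, however, the gap of 16.4 FPKM between FASN and ACLY was smaller than the sum of their SDs, 19.7 FPKM, so these neighbours were not clearly apart there. In sh_SKA3 the same gap was 87.8 FPKM against summed SDs of 1.69 FPKM.

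The summed FPKM of the 10 genes was 556 and 602 in sh_NC and 580 and 593 in sh_SKA3, so the totals overlapped. Within that total the shares shifted. SCD held 33.2% of it in sh_NC and 30.5% in sh_SKA3, FASN 20.6% and 26.5%, and ACLY 17.8% and 11.5%.

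Past the threshold, 1 of the 9 members tested was lower and 1 was higher, which is 2 of 9. Over all genes tested, 6.11% were lower and 6.16% higher, or 12.3% in either direction. The median log2 fold change of the 9 members was 0.14, and that of all genes tested was 0.01. All 9 had groups that did not overlap, 5 higher and 4 lower, beside 61.6% of all genes tested (32.3% higher and 29.2% lower). On the reads recovered from the FPKM values, with limma voom, 1 member was lower (background 12.3%) and 3 were higher (background 13.9%), where 26.2% of all genes were called in either direction. With the filter on reads in place of FPKM, 4 of the 10 were higher (background 12.8%) and 1 was lower (background 11.9%), beside 24.7% in either direction. The plot of changes by gene shows both fits.

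**Figure D2:**
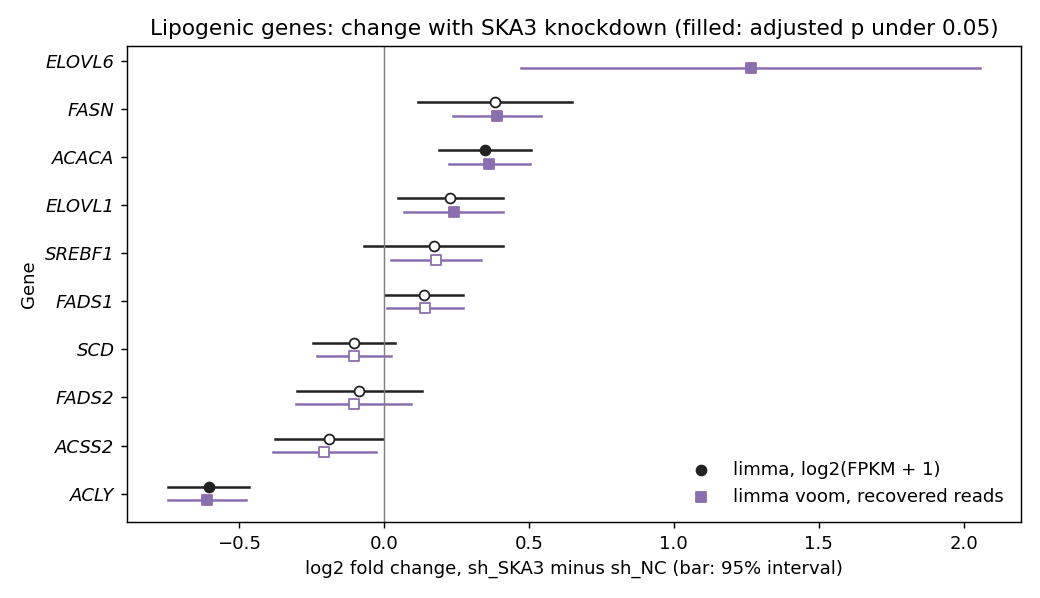
Log2 fold change of each lipogenic gene, sh_SKA3 minus sh_NC, with its 95% interval. Black circles are limma on log2(FPKM + 1), purple squares are limma voom on recovered reads for genes averaging 10 reads or more, and filled symbols have an adjusted p under 0.05. ACLY lies at -0.60 and ACACA at 0.35 in the first fit, and ELOVL6 has a value only in the second, at 1.27.

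SREBF1, the regulator, was at 39.9 and 46.6 FPKM in sh_NC and at 46.8 and 50.6 FPKM in sh_SKA3. The groups came within 1 FPKM of each other, since the higher control library stood almost level with the lower knockdown library. SREBF1 differed by 0.17 on the log2 scale (SE 0.09, 95% interval -0.07 to 0.41, adjusted p = 0.278, limma). Without the first sh_NC library it was 0.06 and without the second 0.28. The 2 control libraries differed by 0.23 on the log2 FPKM scale, beyond the 0.03 that counting error gives for this gene. SREBF1 lies on the minus strand of chromosome 17 (GRCh38, 17810399 to 17837002) and overlaps RAI1 on the opposite strand and the microRNA genes MIR33B and MIR6777. No source says whether strand was used for counting, so reads of overlapping genes cannot be told apart, here and for the members below.

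ACLY, which supplies acetyl-CoA from citrate, was at 101 and 105 FPKM in sh_NC and at 66.6 and 68.0 FPKM in sh_SKA3. The libraries held 6296, 4928, 3537 and 4182 ACLY reads in that order. Both knockdown libraries lay far below both controls, and the gap between groups was many times the spread within either. The log2 fold change was -0.60 (SE 0.05, 95% interval -0.74 to -0.46, adjusted p = 0.0103, limma), and voom gave -0.61. ACLY passed the threshold in all 11 settings that kept all 4 libraries. With any 1 library left out the fold change stayed between -0.63 and -0.58, while the adjusted p was between 0.0549 and 0.0676, past the threshold in none of the 4.

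ACLY lies on the minus strand of chromosome 17 (GRCh38, 41866908 to 41930542) and overlaps AC125257.2 on the opposite strand. The stretch before the ACLY start site is shown because ACLY and ACACA passed the threshold in opposite directions, so that a start window of each can be read side by side. ACLY had 2 such windows, of which the farther upstream is shown, and ACACA had 3, of which the window with both motifs below is shown, a choice made after the matches were seen. The sequences are from RefSeq on GRCh38.p14 and run 5′ to 3′ on the strand of the gene. Capitals mark CCAAT, the letters that NF-Y binds, and GGGCGG, the letters that Sp1 binds, on either strand, so that ATTGG and CCGCCC are marked as well. The ACLY window is chr17:41919023-41919272 on the minus strand, and the ACACA window is chr17:37359122-37359346 on the minus strand, cut short where an annotated exon begins. Both start sites lie inside the annotated span of their gene, downstream of the start of its longest form, and both windows as printed hold no annotated exon of the gene.
ACLY: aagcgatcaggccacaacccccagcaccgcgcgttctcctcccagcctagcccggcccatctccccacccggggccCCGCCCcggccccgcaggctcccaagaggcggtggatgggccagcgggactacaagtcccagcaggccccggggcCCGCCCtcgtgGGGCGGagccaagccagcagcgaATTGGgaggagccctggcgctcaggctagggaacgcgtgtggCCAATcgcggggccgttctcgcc
ACACA: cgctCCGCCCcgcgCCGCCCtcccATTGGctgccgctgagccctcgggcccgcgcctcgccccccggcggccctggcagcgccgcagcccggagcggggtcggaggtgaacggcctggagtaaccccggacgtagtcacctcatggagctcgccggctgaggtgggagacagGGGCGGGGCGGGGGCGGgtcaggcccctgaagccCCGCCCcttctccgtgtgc
The ACLY window held 2 CCAAT and 3 GGGCGG matches in its 250 bases, and the ACACA window 1 and 6 in its 225 bases, some of the latter overlapping each other. The other ACLY window, which overlaps the one shown, held 2 CCAAT and 4 GGGCGG matches, in part the same sites. The other ACACA windows held 2 and 0, and 0 and 5. RefSeq gave 14 start windows of 250 bases for 9 of the members and none for FASN. Of the 14 windows, 7 held CCAAT and 12 held GGGCGG, against 32.0% and 42.6% of all 35116 windows. The windows of ACLY overlap each other, as do those of FADS2, so the 14 are not separate. By gene, 5 of the 9 members had CCAAT in a window and 9 had GGGCGG. Members with several windows had more chances of a match. No share by gene was counted over all genes, so these counts by gene have no background. The sterol response element TCACNCCAC and the E-box CACGTG were in none of the 14, and in 0.883% and 6.34% of all windows. These are matches of letters within the window and say nothing of binding.

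Over the 4 libraries, the genes with the pattern most like that of ACLY were FLVCR1 (Euclidean distance 0.03 between centred log2(FPKM + 1) values), USP6NL (0.03) and BMPR2 (0.04). FLVCR1 was at 12.2 and 12.4 FPKM in sh_NC and at 7.72 and 7.87 FPKM in sh_SKA3. With only 4 libraries such a likeness is a description.

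ACSS2, the alternative source of acetyl-CoA, was at 14.2 and 14.6 FPKM in sh_NC and at 13.1 and 11.9 FPKM in sh_SKA3. Both knockdown libraries were below both controls, by a margin of about the spread within sh_SKA3. The log2 fold change was -0.19 (SE 0.07, 95% interval -0.38 to -0.0027, adjusted p = 0.156, limma). It was -0.12 without the second sh_SKA3 library. It lies on the plus strand of chromosome 20 (GRCh38, 34872146 to 34927962) and overlaps GGT7 on the opposite strand. The ratio of ACLY to ACSS2 within a library was 7.10 and 7.20 in sh_NC and 5.08 and 5.72 in sh_SKA3, so ACLY was lower also relative to ACSS2.

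ACACA, which makes malonyl-CoA, was at 19.3 and 19.4 FPKM in sh_NC and at 25.6 and 24.1 FPKM in sh_SKA3. The reads were 3173, 2402, 3587 and 3918 in that order. The controls were almost level with each other, and both knockdown libraries were higher. ACACA rose by 0.35 on the log2 scale (SE 0.06, 95% interval 0.19 to 0.51, adjusted p = 0.0323, limma), and voom gave 0.36 (adjusted p = 0.00029). ACACA passed in 9 of the 11 settings with all 4 libraries. It did not pass without the filter on low expression (adjusted p = 0.0726) or without the mean-variance trend (adjusted p = 0.0663). With any 1 library left out it stayed between 0.31 and 0.39, and none of these 4 fits passed (adjusted p from 0.0965 to 0.159). ACACA also lies on the minus strand of chromosome 17 (GRCh38, 37084988 to 37406818), and 5 annotated genes overlap it, 3 of them on the opposite strand.

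FASN, the synthase, was at 107 and 131 FPKM in sh_NC and at 154.6 and 155.7 FPKM in sh_SKA3. The knockdown libraries were level with each other and above both controls, and the controls were apart. Their gap was 0.29 on the log2 FPKM scale, where counting error over 11521 and 10621 reads gives 0.02. For FASN the log2 fold change came to 0.38 (SE 0.10, 95% interval 0.12 to 0.65, adjusted p = 0.0753, limma), larger than that of ACACA but with a wider interval. It was 0.24 without the first sh_NC library and 0.53 without the second. Voom on the recovered reads gave 0.39 (adjusted p = 0.000337), so the call for FASN differed between the fits. FASN lies on the minus strand of chromosome 17 (GRCh38, 82078333 to 82098332) with no annotated gene overlapping it. It was past the threshold in 3 of the 11 settings with all 4 libraries.

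The ratio of 2 genes within a library does not depend on library size. FASN over ACLY was 1.06 and 1.25 in sh_NC and 2.32 and 2.29 in sh_SKA3, a mean of 1.16 ± 0.134 against 2.31 ± 0.0221 (SD, n = 2). ACACA over ACLY was 0.191 and 0.185 in sh_NC and 0.384 and 0.355 in sh_SKA3. Both ratios were higher in both knockdown libraries, by far more than replicates differed. FASN over ACACA, in contrast, was 5.57 and 6.78 in sh_NC and 6.04 and 6.45 in sh_SKA3, so its groups overlapped. With 2 libraries a group, an exact permutation test of a ratio cannot go below a two-sided p of 0.333, so no such ratio could pass a threshold.

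**Figure D3:**
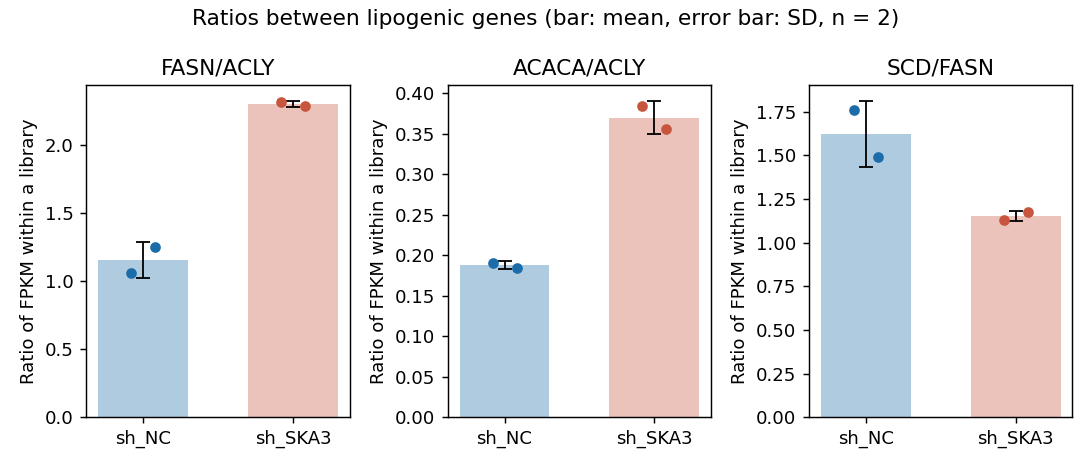
Ratio of FPKM of the named gene pairs within each library, with points for libraries, bars for the group mean and error bars for the SD (n = 2). FASN/ACLY has a mean of 1.16 in sh_NC and 2.31 in sh_SKA3, ACACA/ACLY of 0.188 and 0.370, and SCD/FASN of 1.62 and 1.15.

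Of the elongases, ELOVL1 was at 32.5 and 35.8 FPKM in sh_NC and at 39.4 and 40.9 FPKM in sh_SKA3. Both knockdown libraries were above both controls. The log2 fold change was 0.23 (SE 0.07, 95% interval 0.05 to 0.41, adjusted p = 0.101, limma), and voom gave 0.24 (adjusted p = 0.032). ELOVL6, which makes stearate, was at 0.149 and 0.182 FPKM in sh_NC and at 0.471 and 0.349 FPKM in sh_SKA3. This is at the edge of detection, with 13 and 12 reads in sh_NC and 35 and 30 reads in sh_SKA3. The pooled read rate was 2.48 times as high in sh_SKA3, with an exact 95% interval from 1.54 to 4.11 that covers counting error only. Limma voom was also run over the 14049 genes averaging 10 reads or more, a setting added after the data were seen, and put ELOVL6 at 1.27 on the log2 scale (SE 0.38, adjusted p = 0.0176), where 12.8% of genes were called higher. On log2(FPKM + 1) without the filter the value was 0.27, since that scale compresses low genes. In that limma fit the unadjusted p of ELOVL6 was 0.0397, and 0.249 after adjustment over 26504 genes. ELOVL6 overlaps AC093770.1 and RN7SL275P, both on the opposite strand, and ELOVL1 overlaps the microRNA gene MIR6734.

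SCD, the most abundant of the 10, was at 188 and 196 FPKM in sh_NC and at 175 and 183 FPKM in sh_SKA3. The lower control and the higher knockdown library were closer to each other than the replicates of either group. On the log2 scale the difference was -0.10 (SE 0.06, 95% interval -0.25 to 0.04, adjusted p = 0.277, limma). It was -0.004 after quantile normalization, so the difference all but vanished in that setting. The value was between -0.12 and -0.004 with all 4 libraries and between -0.13 and -0.07 with 1 left out. It was negative in every setting, while the interval above takes in both signs. SCD over FASN was 1.76 and 1.49 in sh_NC and 1.13 and 1.17 in sh_SKA3, lower in both knockdown libraries. SCD lies on the plus strand of chromosome 10 (GRCh38, 100347124 to 100364834) and has a pseudogene, SCDP1, that could share its reads. Its promoter is shown as that of the member with the highest level, at chr10:100346983-100347123 on the plus strand, up to the first annotated exon, with capitals as above.
SCD: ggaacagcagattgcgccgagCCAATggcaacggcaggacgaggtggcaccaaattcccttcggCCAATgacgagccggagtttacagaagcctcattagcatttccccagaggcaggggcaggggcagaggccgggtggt
These 141 bases held 2 CCAAT and no GGGCGG match, and the 109 bases cut off after them held the 2 GGGCGG matches of the full window.

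FADS1 was at 49.4 and 49.7 FPKM in sh_NC and at 55.0 and 54.3 FPKM in sh_SKA3. Replicates were nearly level and the groups were apart, but the step was small. The log2 fold change was 0.14 (SE 0.05, 95% interval 0.0027 to 0.27, adjusted p = 0.154, limma). FADS2 was at 4.31 and 4.19 FPKM in sh_NC and at 3.77 and 4.13 FPKM in sh_SKA3. Here the second knockdown library was almost level with the controls. The log2 fold change was -0.08 (SE 0.08, 95% interval -0.30 to 0.13, adjusted p = 0.537, limma). It was -0.03 without the first sh_SKA3 library and -0.14 without the second. FADS1 (GRCh38, 61799625 to 61829318, minus strand) and FADS2 (61792980 to 61867354, plus strand) overlap on chromosome 11, FEN1 overlaps FADS2 on the same strand, and FADS2P1 is a copy of FADS2. FADS1 over FADS2 was 11.5 and 11.9 in sh_NC and 14.6 and 13.1 in sh_SKA3.

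The genes around the pathway were taken from 9 lists drawn up by textbook role. In all, 118 of their genes were tested, of which 16 were lower and 5 higher past the threshold, with a median log2 fold change of -0.04. The counts of this and each list below stand beside 6.11% lower and 6.16% higher over all genes tested. Among 18 regulators tested, 3 were lower and none higher. INSIG1 and INSIG2, which hold SREBP in the endoplasmic reticulum, both fell. INSIG1 was at 89.3 and 96.9 FPKM in sh_NC and at 65.2 and 66.1 FPKM in sh_SKA3, lower by a log2 fold change of -0.50 (limma, adjusted p = 0.0174). INSIG2 was at 15.9 and 14.7 FPKM against 10.3 and 10.8 FPKM, or -0.49 on the log2 scale (limma, adjusted p = 0.0224). NR1H3, the sterol receptor LXR alpha that activates SREBF1, fell as well, to -0.56 on the log2 scale (limma, adjusted p = 0.0205). SREBF2, the regulator of cholesterol genes, was at -0.04, and SCAP, the SREBP escort, at 0.08, and neither passed.

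**Figure D4:**
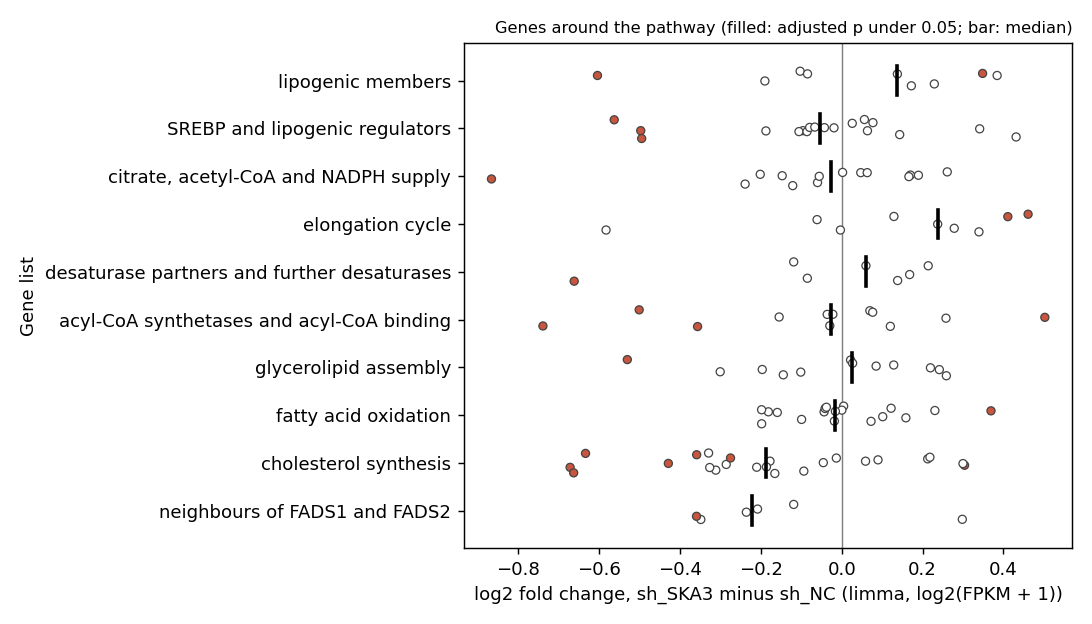
Log2 fold change, sh_SKA3 minus sh_NC, of every tested gene in the member list and the 9 surrounding lists, with filled points for an adjusted p under 0.05 and a black bar at the list median. The elongation cycle has the highest median, 0.24, and cholesterol synthesis and the neighbours of FADS1 and FADS2 the lowest, -0.19 and -0.22.

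In the supply of citrate, acetyl-CoA and NADPH, 1 of 14 genes was lower and none higher. It was IDH1, the cytosolic isocitrate dehydrogenase that makes NADPH, at 25.6 and 24.7 FPKM in sh_NC and 13.4 and 13.3 FPKM in sh_SKA3 (log2 fold change -0.87, adjusted p = 0.00806, limma). SLC25A1, the mitochondrial citrate carrier that feeds ACLY, was at 0.19 (adjusted p = 0.197), and PGD of the pentose phosphate pathway at -0.15 (adjusted p = 0.127). The elongation cycle had 2 of 9 higher and none lower. Both were dehydratases of that cycle, HACD2 at 0.41 (adjusted p = 0.0237) and HACD3 at 0.46 (adjusted p = 0.036). Among 7 partners of the desaturases and further desaturases, 1 was lower. CYB5B, a cytochrome b5 of the outer mitochondrial membrane, was at 80.0 and 75.2 FPKM in sh_NC and at 48.9 and 48.4 FPKM in sh_SKA3 (log2 fold change -0.66, adjusted p = 0.0103, limma). DEGS1, the dihydroceramide desaturase, was at 0.21 and did not pass.

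Downstream, 3 of 12 genes of acyl-CoA synthesis and binding were lower and 1 higher. ACSL1, which activates long-chain fatty acids, was at -0.74, DBI, the acyl-CoA binding protein, at -0.50 and ACBD3, a Golgi protein with an acyl-CoA binding domain, at -0.36. ACOT7, which hydrolyses acyl-CoA, was at 0.50. Of 12 genes of glycerolipid assembly only LPIN2, a phosphatidate phosphatase, passed, at -0.53, while the droplet protein PLIN3 was at 0.13 and the acyltransferase AGPAT2 at 0.22. Of 18 fatty acid oxidation genes only CPT1A, the carnitine palmitoyltransferase that malonyl-CoA inhibits, passed, at 0.37, with HADHA at -0.16 and ECHS1 at 0.23.

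Cholesterol synthesis, which shares SREBP control with lipogenesis, had 6 of 23 genes lower (6.11% over all genes tested) and 1 higher (6.16%). The lower ones were MSMO1 (-0.67), STARD4 (-0.66), SQLE (-0.63), ACAT2 (-0.43), DHCR7 (-0.36) and FDFT1 (-0.27), of which STARD4 carries sterols and the others are enzymes. PMVK, a mevalonate pathway kinase, was higher at 0.30. Of 6 neighbours of FADS1 and FADS2 tested, FEN1, a DNA repair and replication nuclease, was lower at -0.36 (adjusted p = 0.0227, limma), and FTH1, the ferritin heavy chain, was at -0.24 without passing. Of the listed genes, ELOVL4, TECRL, FADS6 and ACADL are not analysed here.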

How the data were processed

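RNA was extracted with Trizol and checked for integrity. Per the labels, the submitters' processing notes name the build hg19 and the tools Bowtie2 2.2.8, HISAT2, StringTie 1.3.1 and Cuffdiff 2.1.1, with no roles. The authors deposited FPKM values per gene, already divided by gene length and library size, so any composition differences between libraries remain. The factors from median-of-ratios scaling were between 0.993 and 1.007. Whole reads were recovered from the FPKM steps (within 0.002 reads) for 99.9% of genes tested, and all value columns were used. Symbols came from GENCODE 29 (GRCh38) for 27199 genes by identifier. ACACA was matched through its older identifier, paired with the symbol in the study's supplementary gene list.

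Groups came from the sample titles. Genes averaging 1 FPKM or more were tested with limma 3.58.1 in R 4.3.3 (lmFit and eBayes with a trend) on log2(FPKM + 1), which understates changes of low genes, with Benjamini-Hochberg adjustment over all 12645 genes. No test for these libraries is stated in the study's methods. Alternatives were a pseudocount of 0.1, other filters, quantile normalization, median-of-ratios scaling, robust eBayes, eBayes without trend, a replicate block, other thresholds, leaving out each library, and limma voom on recovered reads. Voom with a mean of at least 10 reads was added after seeing the data. The steps were tested on simulated data. The exact interval for ELOVL6 covers counting error only, and the limma and voom intervals rest on the spread between libraries. The named genes were all members, SKA3, SREBF2, SCAP, INSIG1 and INSIG2, every list gene past the threshold, the 2 most abundant genes of lists with fewer than 2 such genes, and the 3 genes closest in pattern to the member with the lowest p. Genes named beyond this rule, such as the markers, were chosen after their values were seen. The members and lists were chosen with earlier results of these data known. Promoter windows were the 250 bases before each RefSeq start. Python 3.11.15 with pandas 2.3.3, scipy 1.17.1 and matplotlib 3.10.9 was used for the other steps.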

Additional observations from a re-analysis of the deposited data

How the results depend on the processing

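The lower call, ACLY, was kept in all settings with 4 libraries, and the count of higher members varied. It was 1 as reported, 3 with limma voom and 4 with voom at a mean of at least 10 reads (added after seeing the data). It was 2 at a mean FPKM of at least 5, and 2 at an adjusted p under 0.1. Over all genes the higher share was 6.16% as reported, 13.9% with voom and 12.8% with voom at 10 reads. At FPKM of at least 5, 993 of 7303 genes were higher. No share was counted at an adjusted p under 0.1. At an unadjusted p under 0.05 the count of higher members was 4, with 2 lower, beside 3958 of all 12645 genes in either direction. It was 0 without the filter, where limma called 81 genes lower and 48 higher of 26504 with 4777 at an unadjusted p under 0.05, and 0 without the trend, where it called 381 and 312 with 3707. Among the pathway list genes, 16 were lower and 5 higher as reported. The higher count was 14 with voom, 15 with voom at 10 reads, 9 at FPKM of at least 5, and 0 without the filter or without the trend. The lower count was 25 with voom at 10 reads, 3 without the filter and 9 without the trend. The list genes tested were 123 with voom at 10 reads, 91 at FPKM of at least 5, 130 without the filter and 118 otherwise. These counts stand beside those over all genes given above, and beside 11.9% lower with voom at 10 reads. With each library left out in turn, the members called were 0 to 0 lower and 0 to 0 higher, and their median was between 0.062 and 0.14. The pathway list genes were then 0 to 1 lower and 0 to 0 higher, with a median between -0.054 and -0.014. SKA3 was between -1.14 and -1.04, past the threshold in 2 of the 4 fits (highest adjusted p = 0.066, limma). Over all genes these fits called between 0 and 135 lower and between 0 and 46 higher, with at least 2830 at an unadjusted p under 0.05. A group of 1 library was then assumed to vary like the other group. The cause of these differences was not tested. With the replicate number as a block, 8 pathway list genes were higher, the members called stayed at 1 lower and 1 higher, and over all genes the calls were 965 lower and 1002 higher. The numbers share no stated origin, and the deviations of same-numbered libraries had a correlation of 0.0973 over genes, so they were not taken as pairs. No setting reversed a called member. Depth limits ELOVL6, whose 12 to 35 reads leave a wide interval. In sh_NC the replicate gaps of FADS2, ACSS2, ACACA, FADS1 and ELOVL6 were smaller than the counting error of the gap. Those of FASN, SREBF1, ELOVL1, SCD and ACLY were larger. For ACLY the sh_NC gap was 0.055 against 0.027 on the log2 FPKM scale, and for SCD 0.054 against 0.020. The grouping was not the same in sh_SKA3. There the gaps of ACACA, ACSS2, FADS2, ELOVL6, SREBF1 and SCD were larger than the counting error. Those of FASN, ACLY, FADS1 and ELOVL1 were smaller. For ACACA the sh_SKA3 gap was -0.085 against 0.033, and for ACLY 0.029 against 0.033.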
